A study of Mus musculus with 2 samples.

Results

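Six-family genes encode homeobox transcription factors and the Eya genes encode their coactivators. Of these families, 9 genes are described here: Six2, Six3, Six4, Six5 and Six6, and Eya1, Eya2, Eya3 and Eya4. They were taken by name among the 43346 mouse gene identifiers that were quantified. The rule used no measured value, but earlier results of these data were known when it was set. The 5 Six-family genes are not the whole of that family, so no total of it is given. RNA came from the facial prominences, the embryonic tissue of jaws, palate, nose and lips, of healthy B6NCrl mouse embryos of mixed sex at embryonic day 15.5. There was 1 group of 2 biological replicates, pools of 78 embryos for replicate 1 and 62 for replicate 2, with no treatment or mutant named, so the design held no comparison between conditions and no test of one. From each, 10 ng of RNA longer than 200 nucleotides entered a total RNA-seq library, and expected counts on mouse genes summed to 36048449 and 36774501.

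Six-family proteins carry a Six-type domain, which meets partner proteins, beside a DNA-binding homeodomain. Eya proteins do not bind DNA themselves: their conserved Eya domain, at the carboxyl end, binds Six-family proteins and is a phosphatase, and their amino-terminal part activates transcription. With Pax and Dach factors they form a network that acts in cranial placodes, branchial arches, kidney and skeletal muscle. In the head, Six2 is known from mesenchyme of the face and skull base, Six3 and Six6 from forebrain, eye and pituitary, Six4 from muscle progenitors and sensory ganglia, and Eya1 from ear, branchial arches and muscle progenitors.

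The sequences that the results turn on come first. A stretch of 60 bases from the homeobox was the part of the coding sequence most alike among the 5 Six-family genes, with 39 bases identical in all of them. It encodes part of the helix that reads DNA. It is given from GRCm38 in the sense of each gene, with capitals where a base differs from Six2.
Six2, chr17:85687414-85687473, minus strand: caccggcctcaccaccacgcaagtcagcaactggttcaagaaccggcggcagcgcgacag
Six3, chr17:85621968-85622027, plus strand: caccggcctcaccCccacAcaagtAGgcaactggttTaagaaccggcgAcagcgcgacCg
Six4, chr12:73112370-73112429, minus strand: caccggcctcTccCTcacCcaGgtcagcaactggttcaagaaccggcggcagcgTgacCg
Six5, chr7:19095326-19095385, plus strand: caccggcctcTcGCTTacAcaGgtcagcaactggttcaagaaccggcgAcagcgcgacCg
Six6, chr12:72940547-72940606, plus strand: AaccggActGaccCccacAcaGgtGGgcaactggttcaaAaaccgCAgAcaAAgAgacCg
Six3 and Six4 each differed from Six2 at 7 of these bases, Six5 at 9 and Six6 at 16. Over the aligned coding sequence the highest identity was that of Six3 and Six6, 74.5% of 738 bases. The lowest was that of Six4 and Six5, 53.2%, but over 1996 aligned bases, more than in any other pair. These percentages therefore do not rank the pairs on like stretches. Within the 60 bases above, Six4 and Six5 were the closest pair, with 55 identical bases, and Six3 and Six6 had 48. Even so, no stretch of 100 bases was shared between any of the 9 genes. Words of that length were shared with other genes for Six3 (1.46% of its words, with Six3os1 and Gm28528) and Six6 (2.38%, with 4930447C04Rik), which are genes on the opposite strand that overlap them.

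The Eya genes are shown by their penultimate coding exon, of 101 bases in each of them, within the part that encodes the Eya domain. Eya4 has this exon in a pair of alternative forms 38 bases apart, and they separate its 2 quantified transcripts. Capitals mark bases that differ from the exon of Eya4-202.
Eya4-202, chr10:23109832-23109932, minus strand: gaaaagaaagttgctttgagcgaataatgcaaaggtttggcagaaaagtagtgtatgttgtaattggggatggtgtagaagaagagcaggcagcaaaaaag
Eya4-201, chr10:23109971-23110071, minus strand: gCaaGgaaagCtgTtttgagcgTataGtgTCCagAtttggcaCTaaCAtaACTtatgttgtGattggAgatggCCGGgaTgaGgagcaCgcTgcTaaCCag
Eya1-201, chr1:14179480-14179580, minus strand: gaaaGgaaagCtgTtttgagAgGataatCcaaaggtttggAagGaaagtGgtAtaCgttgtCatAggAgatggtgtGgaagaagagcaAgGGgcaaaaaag
Eya2-202, chr2:165769225-165769325, plus strand: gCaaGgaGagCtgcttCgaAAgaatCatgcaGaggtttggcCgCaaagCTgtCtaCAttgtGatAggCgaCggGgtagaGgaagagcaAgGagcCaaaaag
Eya3-203, chr4:132719212-132719312, plus strand: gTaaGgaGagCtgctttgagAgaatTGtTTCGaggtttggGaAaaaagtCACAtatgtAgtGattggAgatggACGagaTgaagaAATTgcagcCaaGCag
The exon of Eya4-202 was closest to that of Eya1, with 83 of 101 bases identical (82.2%). The other form, in Eya4-201, was closest to Eya3, with 74 identical bases (73.3%), and shared 71 (70.3%) with its own neighbour in Eya4.

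Levels are given as TPM, a share of all transcripts in a library that allows for transcript length, as mean ± SD over the replicates. Of the 9 genes, 8 reached 1 TPM in both libraries, and the exception was Six6. Among all 21474 protein-coding genes 65.4% did so, so the share of these genes that was detected is read beside that background. Eya1, Eya2 and Eya3 were the highest, each above every Six-family gene described here, and Six4 was the lowest of the 8. In RNA of a whole tissue, fewer cells of a type and less RNA per cell cannot be told apart.

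**Figure D1:**
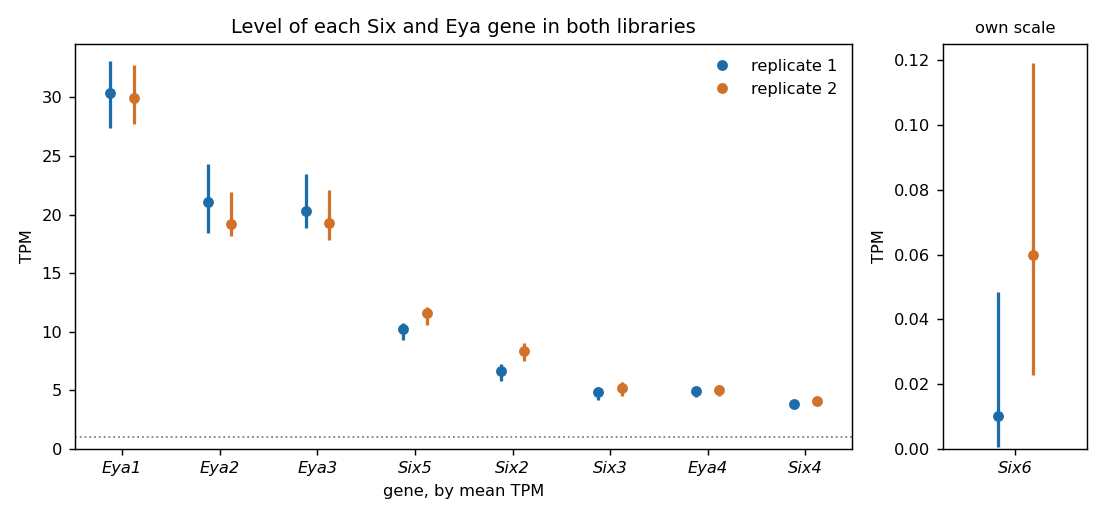
TPM of the 9 genes (linear axes from 0, Six6 on its own scale), with a point for each library, vertical lines for the deposited credibility bounds and a dotted line at 1 TPM. Eya1 lies near 30.2 TPM, Six4 near 3.98 TPM, and Six6 at 0.01 and 0.06 TPM.

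Six5 (chr7:19094594-19098549, plus strand) was the highest of the 5 Six-family genes. It read 10.2 TPM in replicate 1 and 11.6 TPM in replicate 2 (10.9 ± 0.948, SD, n = 2), on 733 and 865 expected counts. It lies beside the myotonic dystrophy kinase gene Dmpk, 773 bases away on the same strand, which read 48.5 and 33.3 TPM. Six5 was thus the lower of these neighbours in both libraries, and Dmpk was lower in replicate 2 where Six5 was higher. On the other side Gm4969, 497 bases away, read 2.26 and 2.15 TPM.

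Six2 (chr17:85684277-85688274, minus strand), a factor of facial mesenchyme and kidney progenitors, read 6.61 and 8.38 TPM (7.50 ± 1.25), on 329 and 435 counts. Its deposited credibility bounds ran from 5.82 to 7.22 TPM in replicate 1 and from 7.50 to 9.03 TPM in replicate 2, and did not overlap. Six3 (chr17:85613608-85629302, plus strand), 54975 bases from Six2, read 4.82 and 5.20 TPM (5.01 ± 0.269), on 311 and 343 counts. Six2 exceeded its neighbour in both libraries. The antisense gene Six3os1, which shares 106 of the 5446 exonic bases of Six3, read 6.95 and 6.37 TPM, more than Six3 in each library. A further antisense gene, Gm28528, shares 168 of these bases and read 0.26 and 0.37 TPM. As the strand setting of the counting is not given in the sources used here, reads of Six3 and of its antisense genes cannot be told apart where they overlap.

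Six4 (chr12:73099609-73113456, minus strand) read 3.86 and 4.10 TPM (3.98 ± 0.170), on 603 and 670 counts, its mean level 1.25-fold below that of Eya4. Its higher-side neighbour Mnat1, 10261 bases away, read 28.3 and 27.9 TPM. Six6 (chr12:72939892-72944899, plus strand), a factor of the optic field and pituitary, had 1 count in replicate 1 and 6 in replicate 2, listed as 0.01 and 0.06 TPM. The exact Poisson 95% intervals of these counts, which cover counting error only, were 0.0253 to 5.57 and 2.20 to 13.1. Six6 shares 192 of its 4009 exonic bases with the gene 4930447C04Rik on the opposite strand, which read 3.42 and 4.32 TPM on 106 and 155 counts. The few counts of Six6 are therefore uncertain.

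Eya1 (chr1:14168954-14310235, minus strand), the gene of branchio-oto-renal syndrome, was the highest of the 9. It read 30.4 and 29.9 TPM (30.2 ± 0.318), on 1914 and 2237 counts, and 76.8% of coding genes lay below it. Eya2 (chr2:165595032-165771727, plus strand), a muscle and placode coactivator, read 21.1 and 19.2 TPM (20.1 ± 1.33), on 952 and 1109 counts. Eya3 (chr4:132638987-132724765, plus strand), a widely expressed member, read 20.3 and 19.3 TPM (19.8 ± 0.742), on 892 and 838 counts. Eya2 and Eya3 overlapped, and Eya1 exceeded both in each library, by 1.5-fold over Eya2 in the means.

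Eya4 (chr10:23102963-23350786, minus strand), a gene of hearing and heart muscle, was the lowest of its family. It read 4.92 and 5.06 TPM (4.99 ± 0.0990), on 475 and 503 counts. The 4 Eya genes summed to 76.7 and 73.5 TPM. Eya1 took 39.6% and 40.8% of this sum, Eya2 27.5% and 26.1%, Eya3 26.5% and 26.2%, and Eya4 6.41% and 6.89%. Among neighbouring genes, Slc2a10 and Zmynd8 on either side of Eya2 read 12.7 and 12.3 TPM, and 39.4 and 39.3 TPM. A further 10 genes overlap Six3, Eya1, Eya2 or Eya4 without sharing an exonic base, and none had more than 2 counts. Next to Eya3, Xkr8 lies on the opposite strand with its 3′ end 132 bases from that of Eya3, and read 5.19 and 4.42 TPM.

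In order of mean level the genes ran Eya1, Eya2, Eya3, Six5, Six2, Six3, Eya4, Six4 and Six6. Neighbours in this order whose 2 values overlapped were Eya2 with Eya3, and Six3 with Eya4. The other neighbours were apart in both libraries, by 1.82-fold between Eya3 and Six5, 1.45-fold between Six5 and Six2 and 1.5-fold between Six2 and Six3. Of all coding genes, 52.5% were below Six2, 47.4% below Six3 and 44.8% below Six4. Of those that reached 1 TPM in each library, 27.4%, 19.7% and 15.7% were below these genes.

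Transcripts are given as the deposited percent of a gene's transcripts in TPM, so a short transcript with few reads can take a large percent. The tables held 39 transcripts of the 9 genes, of which 20 reached 10% in either library and 6 were listed at 0 in both. Every quantified transcript of the Six-family genes and of Eya4 is annotated as coding, so their coding share of 100% is set by the annotation. Eya1, Eya2 and Eya3 also have quantified transcripts without a coding sequence. In Eya1 and Eya2 most of the TPM was on coding transcripts, and in Eya3 the leading transcript has no annotated coding sequence.

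**Figure D2:**
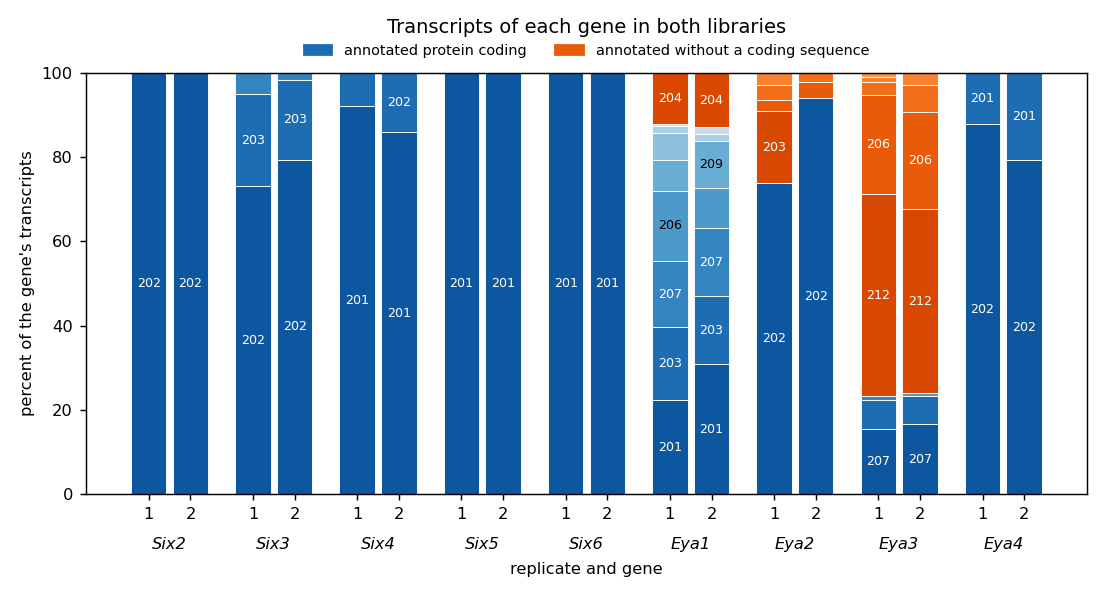
Percent of each gene's transcripts (stacked bars, replicates 1 and 2 side by side) by annotated transcript, with the transcript number where it is 10% or more. In Eya3, transcripts without a coding sequence fill most of the bar in both replicates, where the coding share is 23.2% and 24.0%.

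Six2 was quantified on Six2-202 alone, at 100% in both libraries, although all 1812 bases of its other transcript, Six2-201, lie within Six2-202. Six5-201 and Six6-201 are the only quantified transcripts of their genes. Six3-202 took 73.1% and 79.4% of Six3, and Six3-203, which has a coding sequence of the same 999 bases and other ends, took 21.9% and 19.0%. The third Six3 transcript, Six3-201, has a longer coding sequence of 1041 bases and took 5.0% and 1.59%. The Six3 transcripts thus kept the same order in both libraries.

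Six4-201, with a coding sequence of 2325 bases, took 92.2% and 86.0% of Six4. Six4-202, which keeps the last intron and has a coding sequence of 1554 bases, took 7.81% and 14.0%, on 49.95 and 98.95 expected counts. Eya4-202, the transcript with the exon closest to that of Eya1 in the sequences above, took 87.9% and 79.3% of Eya4. Eya4-201, with the exon closest to that of Eya3, took 12.1% and 20.7%, on 49.9 and 91.4 counts. Both coding sequences are 1848 bases long. Eya4-202 led in both libraries, and its percent differed between them by 8.59 percentage points. The transcripts also differ outside this exon. In GENCODE M21, 1917 bases of Eya4-202 are absent from Eya4-201, more than the 101 of the exon. These percents thus do not measure the use of the exon alone.

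Eya1 was spread over the most transcripts by percent, with 6 of its 9 at 10% or more in either library. Eya1-201 led with 22.3% and 30.9%, followed by Eya1-203 with 17.3% and 16.0%. Eya1-206 and Eya1-207, whose coding sequences are incomplete in the annotation, took 16.8% and 9.67%, and 15.7% and 16.2%. They are short, at 664 and 725 bases. Eya1-206 rested on 71.0 and 42.0 expected counts and Eya1-207 on 73.6 and 77.8, against 709 and 1011 for Eya1-201. Every base of Eya1-206 also lies in Eya1-201. Eya1-209, which has a coding sequence of the same 1773 bases as Eya1-201, took 7.18% and 11.0%. Eya1-204, a transcript with a retained intron near the start of the gene, took 12.1% and 12.9%. Coding transcripts made 87.9% and 87.1% of the TPM of Eya1, and those with a complete coding sequence 48.4% and 59.6%. Of its expected counts, coding transcripts made 83.0% and 84.1%.

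Eya1-203 differs from Eya1-201 in its coding sequence by an exon that starts 15 bases later and by 3 extra bases at the start of the exon before it. Among the quantified Eya1 transcripts that reach this exon, only Eya1-203 lacks the 15 bases. Eya3 has an exon of the same length, 138 bases, that only Eya3-207 holds among the quantified Eya3 transcripts. These exons are shown from GRCm38, with the 15 bases of Eya1 in capitals.
Eya1-201, chr1:14270705-14270842, minus strand: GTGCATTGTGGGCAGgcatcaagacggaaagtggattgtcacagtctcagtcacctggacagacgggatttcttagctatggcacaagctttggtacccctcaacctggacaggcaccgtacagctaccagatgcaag
Eya3-207, chr4:132680756-132680893, plus strand: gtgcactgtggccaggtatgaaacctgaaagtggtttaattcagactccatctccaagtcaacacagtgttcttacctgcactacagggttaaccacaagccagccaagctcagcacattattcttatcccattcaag
Between them 79 of 138 bases were identical (57.2%), and 13 of the first 15.

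Eya2-202 took 73.8% and 93.9% of Eya2. Eya2-201, which has the same coding sequence and another first exon, was listed at 0 in both libraries. The difference between the libraries lay mostly with Eya2-203, a transcript of 369 bases without a coding sequence, which took 17.2% in replicate 1 and was listed at 0 in replicate 2. It rested on 24.1 expected counts in replicate 1, and 330 of its bases also lie in Eya2-202. Counted in expected counts, coding transcripts made 94.5% and 98.1% of Eya2, against 73.8% and 94.0% of its TPM.

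Eya3-212, a processed transcript of 2320 bases, led Eya3 with 48.0% and 43.6%, on 534 and 479 expected counts. Eya3-206, a processed transcript of 655 bases, took 23.4% and 23.1%, on 65.1 and 63.5 counts. Coding transcripts were lower by percent. Eya3-207, with an incomplete coding sequence, took 15.5% and 16.7%, on 80.4 and 86.1 counts. Eya3-203, with a complete coding sequence of 1578 bases, took 7.02% and 6.64%, on 178 and 166 counts. By counts Eya3-203 thus exceeded Eya3-206 and Eya3-207 in both libraries. Every base of Eya3-212 and of Eya3-206 also lies in an exon of Eya3-203, so these transcripts differ in the exons they leave out and in where they end. The last exon is 857 bases long in Eya3-212 and 3487 bases in Eya3-203.

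**Figure D3:**
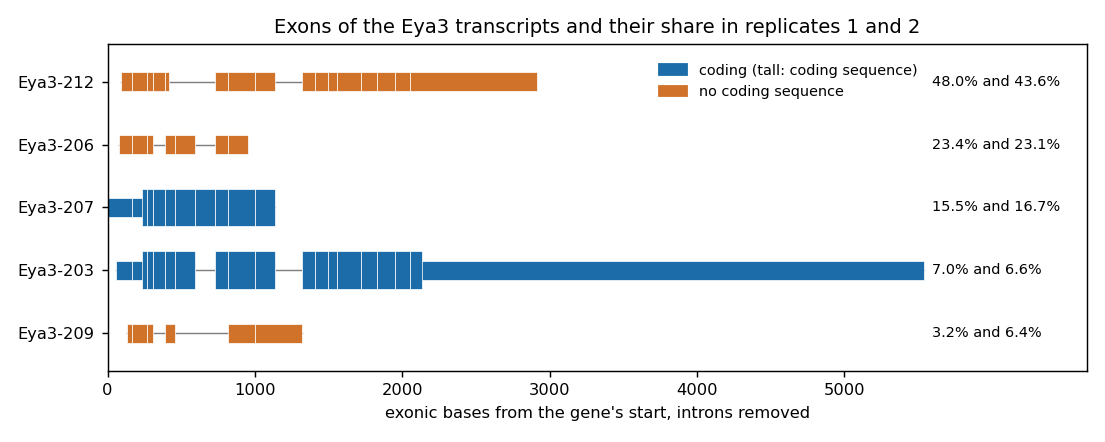
Exons of the Eya3 transcripts at 5% or more in either library, drawn to scale in exonic bases from the gene's start with introns removed, and their percent in replicates 1 and 2 at the right. Blue transcripts are annotated as coding, with the coding sequence drawn tall, and orange ones are not. Eya3-212 ends in a last exon of 857 bases and Eya3-203 in one of 3487 bases.

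In all, coding transcripts made 23.2% and 24.0% of the TPM of Eya3 and 31.0% and 31.9% of its expected counts. Those with a complete coding sequence made 7.74% and 7.27% of the TPM. The difference between the libraries was small beside the size of either share. Among 9619 coding genes at 1 TPM or more with several named transcripts, 6.68% had a leading transcript without a coding sequence and 10.1% had a coding share under 50% of TPM, and the median coding share was 92.5%. The members with several transcripts are Six2, Six3, Six4, Eya1, Eya2, Eya3 and Eya4, and Eya3 was the only 1 of them of that kind.

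The replicates were compared after TMM scaling of the expected counts, as log2 of replicate 2 over replicate 1, with 1 library a side and so no test. None of the 8 genes counted at least 10 times in each library differed by more than 1.5-fold, against 6.5% of 15721 coding genes 4.36% being higher in replicate 2, and 1.24% of the 6917 coding genes within the same range of counts. Six2 had the largest difference, 0.34 on the log2 scale, or 1.27-fold (95% counting interval 1.097 to 1.468). Eya3 was the only gene of the 8 that was lower in replicate 2, by 0.902-fold (0.819 to 0.992). Higher in replicate 2 were 7 of 8, beside 51.2% of coding genes.

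**Figure D4:**
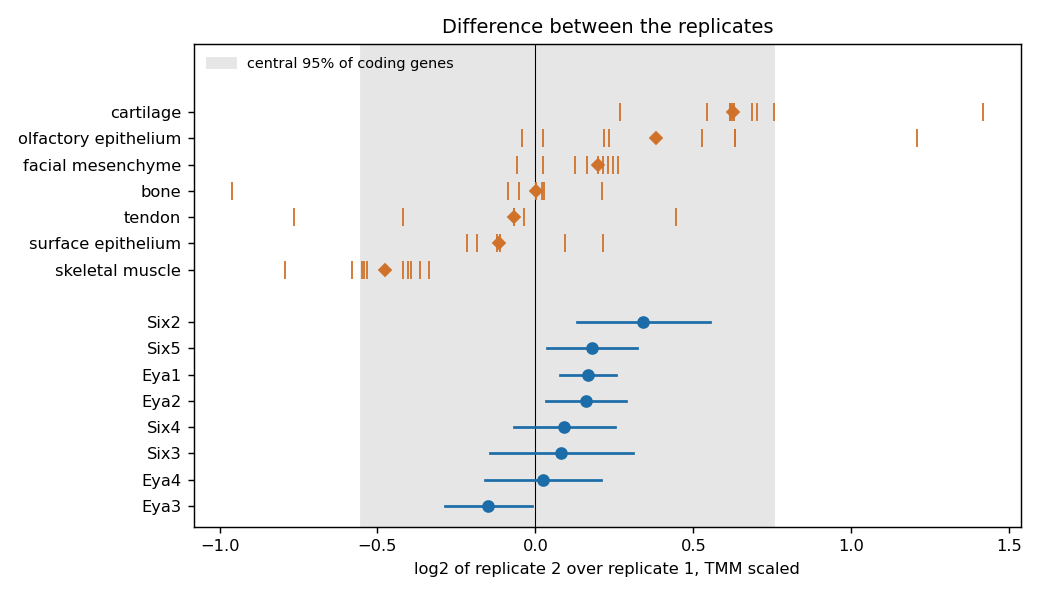
TMM-scaled log2 ratio of the libraries, replicate 2 over replicate 1. Blue points are the 8 genes with their 95% counting intervals, orange ticks are genes of marker lists with a diamond at the median, and grey is the central 95% of coding genes (-0.55 to 0.76). Six2 lies at 0.34, the cartilage median at 0.63 and the muscle median at -0.48.

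The other ratios were 0.18 for Six5, 0.17 for Eya1, 0.16 for Eya2, 0.09 for Six4, 0.08 for Six3 and 0.02 for Eya4. The counting interval of the fold left out 1 for 5 genes: Six2, Six5, Eya1, Eya2 and Eya3. All 8 lay within the central 95% of coding genes, and also within that of the genes in their own range of counts, from -0.34 to 0.37. For Six6 the ratio of scaled counts was 5.76 with a counting interval of 0.698 to 265. Eya1 and Eya2 were higher in replicate 2 by counts and lower by deposited TPM, so that 5 of 8 genes were higher in replicate 2 by TPM. Deposited TPM includes spike-ins, and mouse genes took 93.6% of it in replicate 1 and 89.9% in replicate 2. The TPM of genes is thus lowered more in replicate 2. The mean length of the Eya1 transcripts, weighted by abundance, was 2655 bases in replicate 1 and 3006 in replicate 2, and that of Eya2 was 1932 and 2347. The part of spike-in share and of length in these reversals was not tested.

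Some marker lists of tissues in this sample differed between the libraries and others hardly did by their median. All 10 cartilage markers were higher in replicate 2, 8 of them by more than 1.5-fold, with a summed level of 514 and 831 TPM. All 10 skeletal muscle markers were lower in replicate 2, 1 of them past 1.5-fold, with a sum of 3800 and 2828 TPM. Of 8 olfactory markers 7 were higher in replicate 2, 3 of them by more than 1.5-fold, with sums of 69.4 and 96.7 TPM. Of 9 facial mesenchyme markers 8 were higher in replicate 2, with sums of 526 and 589 TPM. None of the facial mesenchyme markers passed 1.5-fold. The median log2 ratio was 0.00 for bone, -0.07 for tendon and -0.12 for surface epithelium. Single genes of these lists still differed: Bglap of bone (log2 -0.96) and Thbs4 of tendon (log2 -0.76) were lower in replicate 2 past 1.5-fold. No surface epithelium marker passed it. The part of these lists in the ratios of Six2 and the other genes was not tested.

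All 9 markers of facial mesenchyme reached 1 TPM in both libraries, as did all markers of skeletal muscle, cartilage, bone, tendon, surface epithelium and olfactory epithelium. Lists that go with Six3 and Six6 were detected in part: 3 of 10 pituitary markers (summed 41.6 and 43.2 TPM), 3 of 8 retina markers (25.5 and 28.3 TPM), 3 of 8 forebrain markers (22.4 and 23.3 TPM) and 8 of 10 lens markers (130 and 110 TPM). Gsx2 of the forebrain list had no count. Of 7 kidney progenitor markers, Eya1 among them, 3 reached 1 TPM, and Pax2 read 0.01 and 0.07 TPM. Whether Six3 RNA came from any of these tissues was not tested.

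Of the network around both families, all 11 partner genes reached 1 TPM in both libraries and none passed 1.5-fold between the replicates (median log2 -0.02). Highest were the Groucho-related gene Aes at 416 ± 7.84 TPM, geminin (Gmnn), which binds Six-family proteins, at 56.1 ± 2.67 TPM, and the corepressor Tle2 at 54.6 ± 5.17 TPM. The Dachshund genes, the classical corepressor partners, were the lowest of this list, with Dach1 at 1.86 and 1.84 TPM and Dach2 at 1.93 and 1.59 TPM. The partner gene Sobp read 2.81 and 2.88 TPM, below every member other than Six6. In both libraries Dach1 and Dach2 thus lay below the 8 detected members.

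Of 6 Pax genes, 4 reached 1 TPM, and 1 passed 1.5-fold. Pax3, of muscle progenitors and neural crest, read 37.5 ± 0.495 TPM, above Eya1 in both libraries. Pax9, of pharyngeal and jaw mesenchyme, read 6.08 and 9.18 TPM, a log2 ratio of 0.60, and Pax1 read 7.28 and 7.71 TPM. Of 17 genes reported as targets or network neighbours, 15 reached 1 TPM and 1 passed 1.5-fold (median log2 -0.11). Highest were the growth factor gene Igf2 at 822 ± 92.3 TPM, the glycolytic gene Aldoa at 646 ± 6.78 TPM and the muscle regulator Myog at 169 ± 32.5 TPM. The gene that passed was the cyclin gene Ccna1, named after its value was seen, at 4.95 and 9.05 TPM. Myog, also a muscle marker, was lower in replicate 2 (log2 -0.39), where the 2 sets of muscle and target genes share members.

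Six-family proteins bind a motif known as MEF3, written TCAGGTTTC, and it was searched on both strands of RefSeq promoter windows (GRCm38.p6, 250 bases before to 50 after a start). It was present in 141 of 32851 windows (0.429%). Of the 7 members with a window it was in Six4, and of 11 target genes with a window it was in Myog, whose promoter site is the textbook example. Both are shown in the sense of the gene, with the motif or its complement in capitals.
Myog, chr1:134289910-134289938, plus strand: agaggggggcTCAGGTTTCtgtggcgttg
Six4, chr12:73113326-73113354, minus strand: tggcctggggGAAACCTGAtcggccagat
The Myog match begins 84 bases before the RefSeq start. The Six4 match is in the opposite sense and within an exon of Six4 in GENCODE. It lies 99 bases before 1 of the 2 RefSeq starts of Six4 and after the other, which is also the start of the leading transcript Six4-201. The shorter TCAGGTT, which lies within the longer motif, was in 4.07% of all windows and, among members, in Six4 and Six6. A match is a description of letters and does not show that a site is bound. By count of CpG pairs the Six2 window was the richest of the members, with 37, and Six3 the poorest, with 14, both above the median of 7 over all windows.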

How the data were processed

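The text that the authors deposited beside each sample names assembly mm10 and mouse annotation M4, and each library was quantified separately. The program, its settings and its strand option are not stated in the sources used here, nor is whether the kit favoured polyadenylated RNA. Per the file headers, the authors gave expected counts (estimated counts), TPM and FPKM for each gene and transcript, the percent of a gene's transcripts, and credibility bounds of TPM (recorded here as a score). Deposited TPM sums over genes, spike-ins and numbered sequences together. Spike-ins took 6.42% and 10.1% of TPM, which lowers the TPM of genes. Names came from GENCODE M21 (GRCm38), matched on unversioned identifiers, for 42462 of 43346 gene identifiers and all 39 member transcripts. Transcripts were as in M4 when quantified. Exons and coding lengths are those of M21.

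Expected counts were rounded and scaled by TMM in edgeR 4.0.16 (R 4.3.3) with a prior count of 2, and genes counted at least 10 times in each library were compared. TMM factors were 0.989 and 1.01. Counting intervals are exact, at 95%, and cover counting error only. Alternatives were DESeq2 1.42.0 size factors, library totals, spike-in scaling, other thresholds, the posterior mean TPM and each replicate alone. The named genes are all members, every member transcript at 10% or more in either library, overlapping and nearest genes (those with few or no counts are given together or left out), and the 3 highest of each network list. Members and lists were chosen with earlier results of these data known. A gene that the rule names is not reported here.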

Additional observations from a re-analysis of the deposited data

How the results depend on the processing

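The order of the 9 genes was the same with posterior mean TPM, TPM over mouse genes alone and FPKM, and each replicate alone kept 7 to 7 genes at the same place. The count at 1 TPM or more stayed 8 at thresholds of 0.5 and 2 TPM and with each replicate alone (8 to 8), and the leading transcript of 9 to 9 genes was the same. TPM over mouse genes alone was 1.09-fold higher. Scaling by DESeq2 size factors or library totals, or a threshold of 2-fold, left 0 genes past the fold and, for the scalings, 7 higher in replicate 2. Spike-in scaling shifted the median of coding genes counted at least 10 times to -0.65 on the log2 scale, which is itself past 1.5-fold. The larger part of those coding genes thus passed 1.5-fold, lower in replicate 2. Of the 8 genes, 2 passed, Eya3 and Eya4, and 0 were higher in replicate 2, so this count does not set Eya3 and Eya4 apart from coding genes at large. Relative to that shift, the 8 genes kept their places. Without the count minimum 1 gene passed, Six6, on its few counts. The coding share of Eya3, 23.6% of TPM in the mean, was 31.4% by expected counts, 22.8% by posterior mean TPM and 23.2% to 24.0% with each replicate alone. Its share of Eya TPM was 26.3%, or 26.9% by posterior mean. No paired analysis was possible because there is 1 group. Depth limits Six6, with 1 and 6 counts, and the transcripts with fewer than 100 expected counts.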
